A study of Homo sapiens with 6 samples.

Results

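The insulin-like growth factor (IGF) system was followed through 10 genes chosen by symbol: the IGF binding proteins IGFBP1 to IGFBP7, the ligand gene IGF2, and the receptors IGF1R and IGF2R. All 10 were found by NCBI gene identifier among the 28395 genes of the deposited count table. The libraries came from U251, an established human glioblastoma cell line, with 3 libraries of wild-type cells (WT) and 3 of cells in which NUAK2, a kinase of the AMPK-related family, had been targeted with CRISPR-Cas9 (NUAK2-CR). NUAK2-CR cells carried a NUAK2 guide from a GFP and an mCherry lentiviral vector and were sorted on both colours and grown as clones, and the sources used here do not state whether WT cells received a vector. The labels name no clone, and the clone sequenced is not stated in the methods used here, so the NUAK2 genotype and the properties of a clone cannot be told apart. The labels also do not state whether the libraries of a group were separate cultures, so p-values measure the spread between these libraries, which may be technical. The comparison asked which genes of the IGF system differed in mRNA level between NUAK2-CR and WT cells.

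In this system the ligands IGF1 and IGF2 bind IGF1R, a receptor tyrosine kinase that signals through the IRS adaptors to PI3K and AKT. IGF2R, the cation-independent mannose 6-phosphate receptor, has no kinase domain; it takes up IGF2 for degradation and carries lysosomal enzymes. The high-affinity binding proteins IGFBP1 to IGFBP6 are secreted, hold the ligands away from the receptor or release them near it, and are cut by proteases such as PAPPA, while IGFBP7 binds IGFs weakly. Several binding proteins also act without IGFs, through integrins and other surface proteins, and IGFBP2 is often abundant in glial tumors.

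Counts summed over genes ranged from 35310946 to 55574081 per WT library and from 29648445 to 33776712 per NUAK2-CR library. Every WT library was thus deeper than every NUAK2-CR library, and raw counts given below are not scaled for depth. WT and NUAK2-CR libraries separated on the first principal component, which held 79.6% of the variance. NUAK2 itself was lower but still detected, at 1926, 1457 and 1580 normalized counts in WT against 799, 961 and 849 in NUAK2-CR, or 52.6% of WT (log2 fold change -0.93, standard error 0.11, edgeR adjusted p = 1.8e-05). The 100 tested genes nearest to NUAK2 on chromosome 1 also leaned lower, with a median of -0.44, and relative to that regional shift NUAK2 was at -0.50. At an edgeR adjusted p under 0.05, 58 of them were lower and 10 higher, against 28.2% and 26.3% of all tested genes. A normalized count is a read count scaled to the mean library size after TMM normalization. All 8 markers of astroglia and glioma lines were detected in every library, and their summed level ran from 334036 to 370815 normalized counts in WT and from 146830 to 153589 in NUAK2-CR. Of these 8, 7 were lower in NUAK2-CR at an edgeR adjusted p under 0.05, as were 28.2% of all tested genes. Markers of other cell types summed to low levels: 4 epithelial markers to between 224.5 and 308.5 in WT and between 34.0 and 53.1 in NUAK2-CR, 4 endothelial markers to between 34.4 and 56.0 and between 87.8 and 107.9, 4 hepatocyte markers to between 200.6 and 331.1 and between 127.3 and 302.7, and 5 leukocyte markers to at most 28.0, with CD3E at 0 throughout. Single genes made up most of 2 of these sums. KRT19 had means of 243 in WT and 25.4 in NUAK2-CR within the epithelial sum. SERPINA1 had 239 and 207 within the hepatocyte sum. The part of these marker shifts in the results below was not tested. In bulk RNA, fewer cells of a type and less RNA per cell cannot be told apart.

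Start-site sequences are shown for the binding proteins with the largest rise and the largest fall and for IGF2R, as the 250 bases upstream of the RefSeq start on GRCh38.p14, 5′ to 3′ on the gene's strand. Capitals mark matches, on either strand, to the TATA elements spelled TATAAA and with the other spelling TATTTAA, to the GC box GGGCGG, to the core of TEAD sites, which reads GGAATG, to the FOXO site GTAAACA, to the E-box CACGTG and to the AP-1 site TGACTCA. The motifs were chosen with results of these data known, and the second TATA spelling was added after the IGFBP5 sequence had been read. The windows are chr2:216695550-216695799 (minus strand) for IGFBP5, chr17:40443200-40443449 (plus strand) for IGFBP4 and chr6:159968832-159969081 (plus strand) for IGF2R.
IGFBP5: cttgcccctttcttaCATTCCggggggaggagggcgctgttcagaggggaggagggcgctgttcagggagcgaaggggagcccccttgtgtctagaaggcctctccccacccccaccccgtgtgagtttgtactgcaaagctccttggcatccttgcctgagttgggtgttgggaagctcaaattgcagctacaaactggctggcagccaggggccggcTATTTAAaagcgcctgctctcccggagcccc
IGFBP4: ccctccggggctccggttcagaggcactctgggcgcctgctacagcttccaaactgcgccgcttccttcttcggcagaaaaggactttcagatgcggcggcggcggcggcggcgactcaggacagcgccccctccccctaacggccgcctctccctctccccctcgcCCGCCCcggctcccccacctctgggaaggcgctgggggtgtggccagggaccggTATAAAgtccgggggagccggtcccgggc
IGF2R: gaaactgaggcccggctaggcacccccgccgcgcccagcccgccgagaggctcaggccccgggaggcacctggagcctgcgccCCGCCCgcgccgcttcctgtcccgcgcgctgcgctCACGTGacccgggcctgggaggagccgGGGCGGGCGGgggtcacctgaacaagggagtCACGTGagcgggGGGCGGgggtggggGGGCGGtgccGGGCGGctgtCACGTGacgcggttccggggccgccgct
In IGFBP5 the TATTTAA match lay from -31 to -25 and a GGAATG match, on the minus strand, from -235 to -230, counted back from -1 at the base before the start. IGFBP4 held TATAAA from -29 to -24 and a GGGCGG match from -83 to -78. IGF2R held no TATA element of these spellings and had CACGTG at 3 places, beginning at -132, -74 and -28, with 6 GGGCGG matches of which a pair overlap. Across 35116 RefSeq windows of the same length, 10.7% held TATAAA, 4.17% TATTTAA, 42.6% GGGCGG, 11.9% GGAATG, 2.98% GTAAACA, 6.34% CACGTG and 4.2% TGACTCA. Repeats within a window were counted for CACGTG alone, the motif that IGF2R held at 3 places, and without matching GC content. At least 3 matches were held by 28 windows (0.0797%). With motif and number set by the IGF2R match, this share does not measure how unusual IGF2R is. Windows were found for 7 of the 10 genes; IGFBP1, IGFBP7 and IGF2 had none. Among the others, IGFBP6 held GTAAACA from -186 to -180 and GGAATG from -101 to -96. GGGCGG was also matched in IGFBP6, IGFBP3, IGF1R and windows 1 and 2 of IGFBP2, while window 3 of IGFBP2 held no match. The GC content of the upstream bases was 61.2% for IGFBP5 and IGFBP6, 71.6% for IGFBP4, 76.0% for IGFBP3, 79.2% for IGF2R and 81.2% for IGF1R. The 3 windows of IGFBP2 had 56.8%, 69.2% and 56.4%, and the median over all windows was 58.0%. These matches describe letters in a window and were not tested for binding.

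U251 cells of either group held next to no ligand mRNA. IGF2 had 6 counts in WT replicate 1, the deepest library, and 0 in the other 5 libraries, each of which allows up to 3 counts at its depth. It did not pass the filter on low counts. IGF1, the other ligand, had 9, 9 and 6 counts in WT against 9, 10 and 5 in NUAK2-CR, and INS, which encodes insulin, had none. The IGF2 locus (chromosome 11, 2129117 to 2149566) overlaps the read-through gene INS-IGF2 on the same strand. The overlap covers 998 of the 5580 bases of the IGF2 reference transcript, and reads from that stretch may have been left out of the count. INS-IGF2 and the antisense gene IGF2-AS, both named after their values were seen, had 0 counts in every library, and H19, the noncoding RNA of the neighbouring imprinted locus, had 3, 2 and 0 in WT against 0 in NUAK2-CR. IGFBP1, a liver and decidua binding protein, was also near the limit of detection, with 4, 2 and 2 counts in WT against 0, 2 and 2 in NUAK2-CR, and was not tested.

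The other 8 genes passed the filter, and all 8 differed between NUAK2-CR and WT at an adjusted p-value under 0.05 in edgeR's quasi-likelihood test, where 54.5% of the 14873 genes tested did. IGFBP2, IGFBP5, IGFBP6 and IGF2R were higher in NUAK2-CR, as were 26.3% of tested genes, and IGFBP3, IGFBP4, IGFBP7 and IGF1R were lower, as were 28.2%. Values of the groups were separate for each of the 8, against 61.4% of tested genes. None reached the size that the study also asked of a differentially expressed gene, a log2 fold change beyond 2 in either direction, which 4.72% of tested genes passed, while IGFBP5, IGFBP4 and IGFBP7 exceeded 1, as did 13.9%. Their median log2 fold change was -0.02 against -0.01 over all tested genes, and their median absolute log2 fold change was 0.55 against 0.37.

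**Figure D1:**
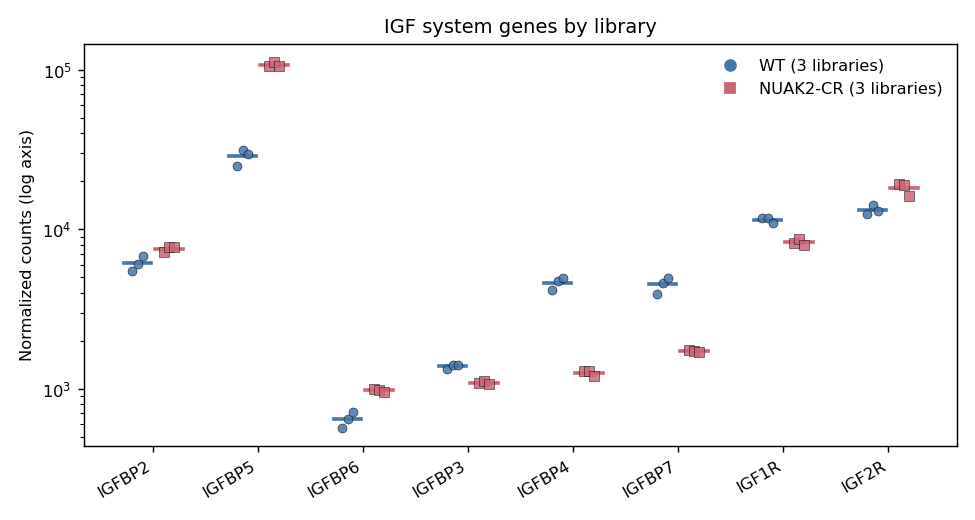
Normalized counts (log axis) of the 8 tested IGF system genes in each of 3 WT (circles) and 3 NUAK2-CR (squares) libraries, with group means as bars. IGFBP5 stands between 105542 and 111427 in NUAK2-CR, and no gene has overlapping groups; IGFBP1 and IGF2, near 0, are not drawn.

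IGFBP5, a matrix-binding IGF carrier, showed the largest rise of these genes. It had 24947, 31607 and 29551 normalized counts in WT replicates 1, 2 and 3, against 105820.4, 111427 and 105542 in NUAK2-CR. The lowest NUAK2-CR library thus lay far above the highest WT library, and the means of 28702 ± 3410.4 (SD, n = 3) and 107597 ± 3320.4 (SD, n = 3) differed 3.75-fold. The log2 fold change was 1.91 (standard error 0.09, 95% interval 1.72 to 2.10, edgeR adjusted p = 4.15e-09). IGFBP5 (gene 3488) lies on chromosome 2 from 216672105 to 216695549, and 487 of the 6239 bases of its MANE Select transcript, the reference transcript agreed by RefSeq and Ensembl, overlap exons of the antisense gene DIRC3-AS1. The strand setting of the counting is not given in the sources used here, so reads from that stretch cannot be assigned with certainty.

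IGFBP2 (gene 3485), an integrin-binding carrier often high in glioblastoma, lies tail to tail with IGFBP5 on chromosome 2, from 216632828 to 216664436, with 7668 bases between them. Its values were 5471, 6068 and 6766 in WT against 7247, 7702 and 7733 in NUAK2-CR. The groups lay close together without overlapping, and the log2 fold change was 0.31 (standard error 0.08, 95% interval 0.13 to 0.49, edgeR adjusted p = 0.00609), so the neighbours differed in the size of their rise. The 100 tested genes nearest to IGFBP2 in genome order had a median log2 fold change of 0.16, and relative to that regional shift IGFBP2 was at 0.14. IGFBP5, with a regional median of 0.15, was still at 1.75.

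IGFBP6 (gene 3489, chromosome 12, 53097667 to 53102340) prefers IGF2 over IGF1. It went from 568, 645 and 710.5 normalized counts in WT to 1002, 986.5 and 953 in NUAK2-CR, with every NUAK2-CR library above every WT library. Its log2 fold change was 0.62 (standard error 0.10, 95% interval 0.40 to 0.83, edgeR adjusted p = 0.00017), in a region with a median of 0.20.

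IGFBP4 showed the largest fall. IGFBP4 (gene 3487, chromosome 17, 40443450 to 40457725) encodes a secreted inhibitor of IGF action and is the classical substrate of PAPPA. Its values were 4138, 4703 and 4941 in WT against 1284, 1293 and 1202 in NUAK2-CR. The NUAK2-CR mean of 1260 ± 49.96 (SD, n = 3) was 27.4% of the WT mean of 4594 ± 413 (SD, n = 3), and the log2 fold change was -1.87 (standard error 0.08, 95% interval -2.04 to -1.69, edgeR adjusted p = 2.99e-09). The 100 nearest tested genes, between 36601583 and 42850707, also leaned lower in NUAK2-CR, with a median of -0.37. At an edgeR adjusted p under 0.05, 51 of them were lower and 9 higher, against 28.2% and 26.3% of all tested genes. Relative to that regional shift IGFBP4 was at -1.51. The part of gene dosage in this fall, or in the changes of the other IGF system genes, was not tested.

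IGFBP7 (gene 3490, chromosome 4, 57030773 to 57110385), a low-affinity member found in vessel and tumor matrix, followed with 3948, 4631 and 4960 normalized counts in WT against 1743, 1728 and 1697 in NUAK2-CR. The 3 NUAK2-CR libraries were tightly grouped below the lowest WT library. The log2 fold change was -1.39 (standard error 0.09, 95% interval -1.57 to -1.20, edgeR adjusted p = 5.79e-08), and the regional median was in the other direction, at 0.13. Of its 1427-base MANE Select transcript, 18.2% overlaps exons of POLR2B and 6.59% those of IGFBP7-AS1, both on the opposite strand, with the same uncertainty of assignment.

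IGFBP3 (gene 3486, chromosome 7, 45912245 to 45921272), the main carrier of IGFs in blood, fell by much less. It had 1321, 1415 and 1407 normalized counts in WT against 1082, 1113 and 1076 in NUAK2-CR. The groups were separate and the log2 fold change was -0.34 (standard error 0.08, 95% interval -0.50 to -0.18, edgeR adjusted p = 0.00205). IGFBP1, its neighbour 18584 bases away, stayed near 0 in either group. The genes around IGFBP3 had a median of 0.14.

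The receptors moved in opposite directions. IGF1R (gene 3480, chromosome 15, 98648539 to 98964530) had 11747, 11717 and 10990.0 normalized counts in WT against 8171, 8686 and 7934 in NUAK2-CR, so NUAK2-CR held 72.0% of the WT level. Its log2 fold change was -0.47 (standard error 0.07, 95% interval -0.62 to -0.33, edgeR adjusted p = 6.9e-05), with a median of -0.12 over the 70 neighbouring genes that the chromosome held. IGF2R (gene 3482, chromosome 6, 159969082 to 160111504) had 12497, 14291 and 13015 in WT against 19303, 19070.5 and 16188 in NUAK2-CR. NUAK2-CR replicate 3 lay nearest to WT but above all of it, and the log2 fold change was 0.46 (standard error 0.08, 95% interval 0.27 to 0.64, edgeR adjusted p = 0.000544), with a median of -0.08 over 72 neighbouring genes. Per kilobase of transcript the ratio of IGF2R to IGF1R was 0.926, 1.06 and 1.03 in WT against 2.06, 1.91 and 1.78 in NUAK2-CR. This ratio is taken within a library and does not depend on the scaling between libraries, while its absolute size depends on the transcript lengths used.

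**Figure D2:**
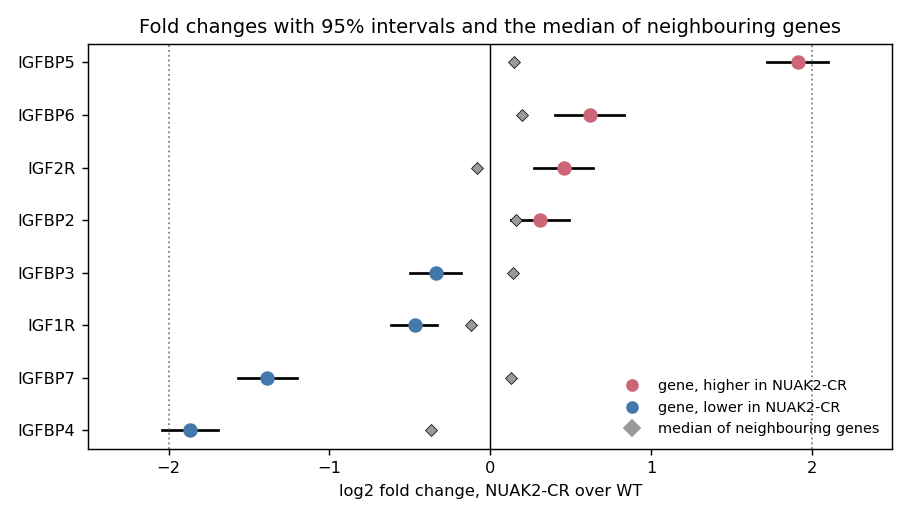
Log2 fold changes of NUAK2-CR over WT (circles) with 95% intervals (bars) from edgeR, and the median log2 fold change of up to 100 neighbouring tested genes (diamonds); dotted lines mark an absolute value of 2. IGFBP5 at 1.91 and IGFBP4 at -1.87 stand well away from their regional medians of 0.15 and -0.37.

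To compare levels between genes, normalized counts were divided by the length of the MANE Select transcript in kilobases. In WT, IGFBP5 (4600.4 ± 547 per kilobase, SD, n = 3) and IGFBP2 (4315 ± 458) led with overlapping values, followed by IGFBP7 (3163 ± 362) and IGFBP4 (2083 ± 187). IGF2R (944 ± 65.6) and IGF1R (939 ± 35.0) came next and did not differ beyond their spread, above IGFBP6 (677 ± 75.4) and IGFBP3 (529 ± 19.9). In NUAK2-CR the order per kilobase was IGFBP5 (17246 ± 532), IGFBP2 (5347 ± 193), IGF2R (1293 ± 123), IGFBP7 (1207 ± 16.5), IGFBP6 (1035 ± 26.4), IGF1R (675 ± 31.4), IGFBP4 (571 ± 22.7) and IGFBP3 (417 ± 7.66). There IGF2R and IGFBP7 were the neighbours with overlapping values. The order depended on the length used. With the length of all annotated exons, an alternative chosen after seeing the data, the WT order was IGFBP5 (4439), IGFBP7 (2338), IGFBP4 (2083), IGFBP2 (1287), IGF1R (824), IGF2R (587), IGFBP6 (476) and IGFBP3 (302) per kilobase. IGFBP2 then stood below IGFBP7 and IGFBP4 instead of beside IGFBP5, and every WT value of IGF1R lay above every WT value of IGF2R. In NUAK2-CR, IGFBP5 (16640.4) and IGFBP2 (1594) still led, followed by IGFBP7 (893) and IGF2R (804). Among 13130 tested genes with a MANE Select transcript, IGFBP5 ranked 495 by mean level per kilobase in WT against 88 in NUAK2-CR, whereas IGFBP4 ranked 1296 and 4424.

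The makeup of the IGFBP mRNA pool, the summed level of IGFBP1 to IGFBP7 per kilobase, changed with these shifts. The sum was 13618, 15960.0 and 16528 normalized counts per kilobase in WT against 25362, 26573 and 25539 in NUAK2-CR. IGFBP5 made up 29.4%, 31.7% and 28.7% of the pool in WT against 66.9%, 67.2% and 66.2% in NUAK2-CR. IGFBP7 went from 20.6% ± 0.406 (SD, n = 3) to 4.68% ± 0.131 (SD, n = 3), IGFBP4 from 13.6% ± 0.208 to 2.21% ± 0.0806 and IGFBP3 from 3.46% ± 0.234 to 1.62% ± 0.0150. IGFBP2, although its level was higher in NUAK2-CR, went from 28.1% ± 1.07 to 20.7% ± 0.630, and IGFBP6 from 4.4% ± 0.135 to 4.01% ± 0.140. For each of these 6 shares the groups did not overlap, and the exact two-sided permutation test over libraries gave p = 0.1, the smallest value that 3 against 3 allows, with an adjusted p of 0.1 over the 6 shares. Without IGFBP5 in the sum, the shares of IGFBP2 and IGFBP6 turned upward, from 40.1% to 62.3% and from 6.28% to 12.1%, while IGFBP3 stood at 4.93% in WT and at 4.86% in NUAK2-CR. The direction of each difference was kept under the other length corrections, but some sizes moved by over 1.5 times. With the length of all annotated exons, the difference in share was -4.07 rather than -7.38 percentage points for IGFBP2 and -0.834 rather than -0.394 for IGFBP6, and with no length correction it was -8.39 rather than -15.9 for IGFBP7.

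**Figure D3:**
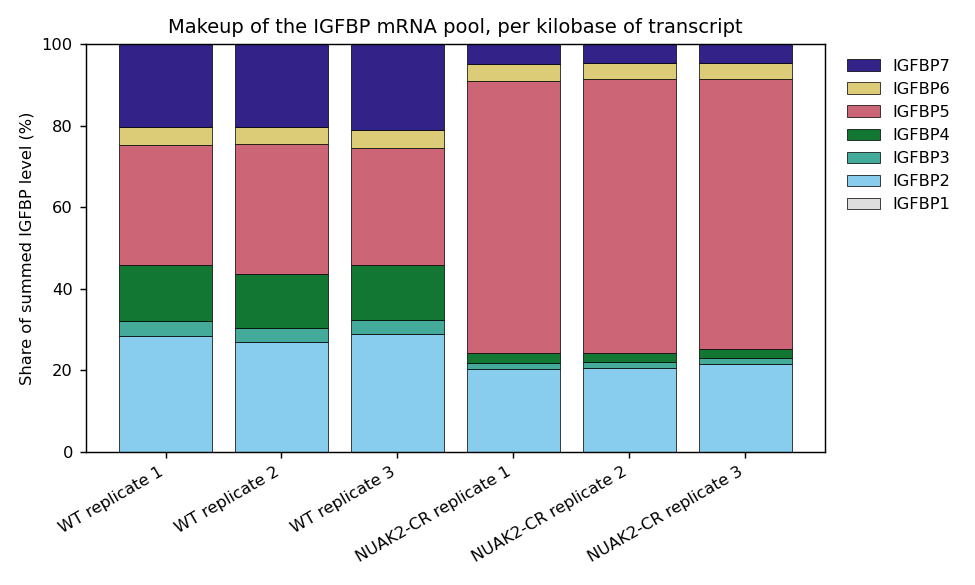
Share (%) of each IGFBP in the summed per-kilobase level of IGFBP1 to IGFBP7, for each of 3 WT and 3 NUAK2-CR libraries. IGFBP5 takes up 28.7% to 31.7% of the pool in WT against 66.2% to 67.2% in NUAK2-CR, and the bands of IGFBP4 and IGFBP7 narrow.

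Of the genes tested, those whose log2 expression over the 6 libraries was most like that of IGFBP5 were COLGALT2 (Pearson r = 0.9998), B4GALT1 (0.9997) and MMP2 (0.9995). With 2 groups of 3 libraries such a likeness mostly reflects the difference between groups, and 441 of 14872 genes had r over 0.99.

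Other components of the pathway were followed in 8 lists of 84 genes, of which 70 passed the filter, 32 were higher in NUAK2-CR and 13 lower, so 64.3% differed, against the 54.5% of all tested genes. The lists were read by counts and medians only, beside the median of -0.01 over all tested genes. Of all tested genes, 26.3% were higher and 28.2% lower in NUAK2-CR, the shares to set beside the counts of each list.

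**Figure D4:**
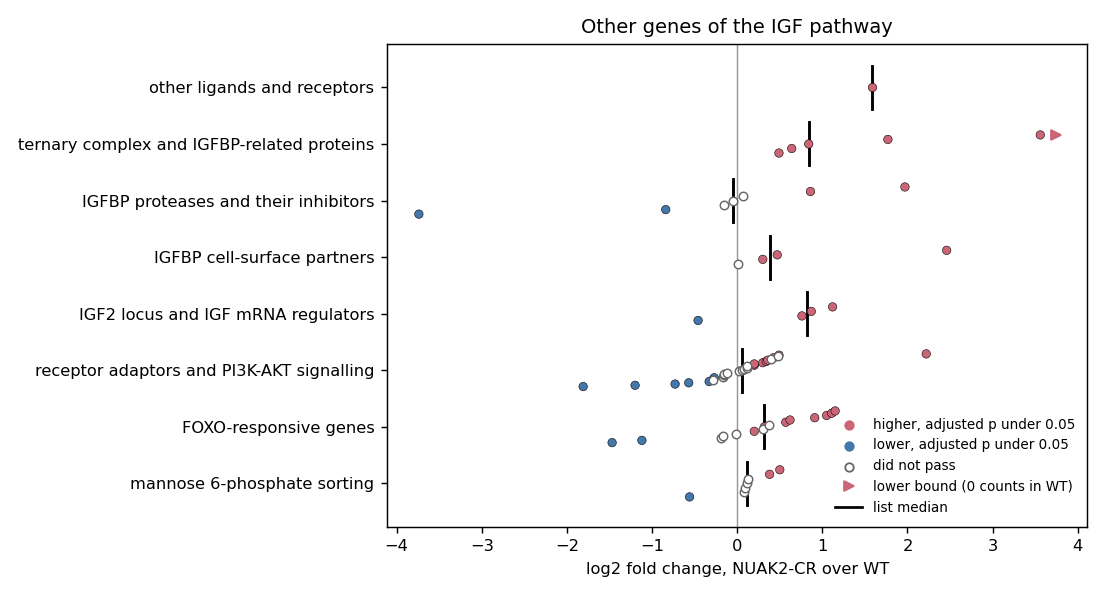
Log2 fold changes of NUAK2-CR over WT for the 70 tested genes of 8 IGF pathway lists, filled where the edgeR adjusted p is under 0.05 and open where it did not pass, with list medians as bars; ESM1 is drawn at its lower bound of 3.56. PAPPA at -3.74 lies farthest to the left, and the ternary complex and IGFBP-related list has 5 of 5 tested genes to the right of 0. ESM1 is among these 5 and passed the filter only through its NUAK2-CR counts.

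Among the proteases that cut binding proteins and the inhibitors of those proteases, 7 of 8 genes were tested, with 2 higher, 2 lower, 3 that did not pass and a median log2 fold change of -0.05. PAPPA (gene 5069, chromosome 9), the metalloproteinase that cleaves IGFBP4 and IGFBP5, had 183, 126 and 131 counts in WT against 8, 2 and 14 in NUAK2-CR. The NUAK2-CR libraries kept 7.28% of the WT level after normalization, a log2 fold change of -3.74 (standard error 0.40, edgeR adjusted p = 6.11e-06). With so few reads the value moved to -4.34 without NUAK2-CR replicate 3 and to -3.30 without NUAK2-CR replicate 2. STC2 (gene 8614, chromosome 5), a stanniocalcin that binds and inhibits PAPPA, went the other way, from 417, 544 and 509.5 normalized counts in WT to 1811, 1850.0 and 2064 in NUAK2-CR (log2 fold change 1.97, standard error 0.11, edgeR adjusted p = 1.82e-08). STC1, the related inhibitor, did not pass, with 3733 ± 327.5 (SD, n = 3) in WT libraries against 3919 ± 141 (SD, n = 3) in NUAK2-CR (log2 fold change 0.07). The serine protease HTRA1 was higher (0.86) and the IGFBP-cleaving metalloproteinase ADAM12 lower (-0.84); these 2 genes were picked to complete the counts after their values were seen.

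**Figure D5:**
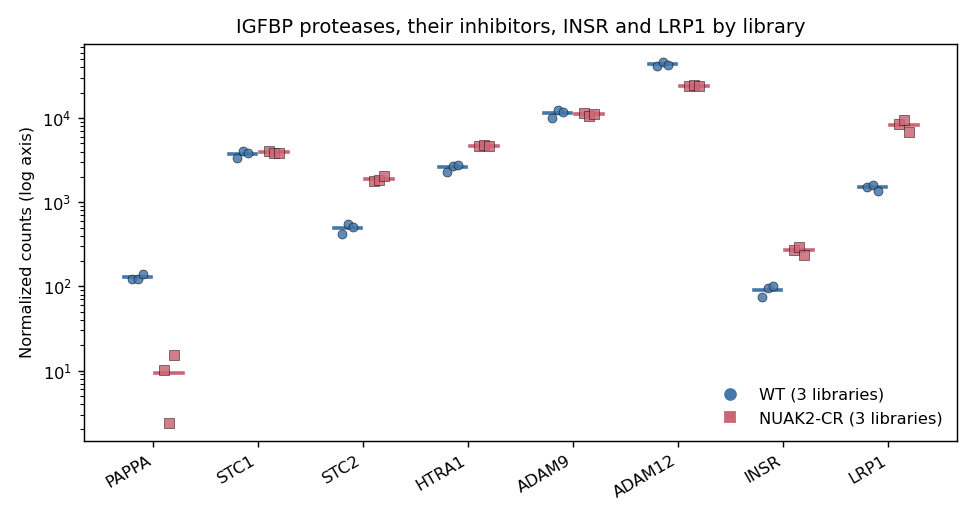
Normalized counts (log axis) of IGFBP proteases, the PAPPA inhibitors STC1 and STC2, the insulin receptor INSR and the IGFBP3 receptor LRP1 in each of 3 WT (circles) and 3 NUAK2-CR (squares) libraries, with group means as bars. PAPPA drops from 128 to 9.31 on average, STC2 rises from 490.2 to 1908, and STC1 and ADAM9 have overlapping groups.

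Of the 4 other ligands and receptors, the insulin receptor gene INSR alone had enough reads to be tested. INSR (gene 3643, chromosome 19), which pairs with IGF1R in hybrid receptors, had 74.4, 96.5 and 101.0 normalized counts in WT against 273.0, 297 and 239 in NUAK2-CR, which gave a fitted log2 fold change of 1.58 (standard error 0.18, edgeR adjusted p = 1.28e-05). Its level stayed low: per kilobase IGF1R exceeded INSR 122-, 93.9- and 84.1-fold in WT against 23.2-, 22.6- and 25.6-fold in NUAK2-CR.

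All 5 tested genes of 7 in the list of ternary complex and IGFBP-related proteins were higher in NUAK2-CR, with a median log2 fold change of 0.84. ESM1 passed the filter only through its NUAK2-CR counts, so its direction was fixed by passing. Requiring 10 counts in every library left 4 higher genes. KAZALD1 (gene 81621, chromosome 10), an IGFBP-related protein of bone, rose from a WT mean of 211 ± 2.93 (SD, n = 3) to a NUAK2-CR mean of 720.3 ± 50.8 (SD, n = 3) normalized counts (log2 fold change 1.77, edgeR adjusted p = 5.97e-08). The other members, named to complete the count after their values were seen, were the matricellular genes CCN1 (0.49), CCN2 (0.64) and CCN3 (0.84) and the endothelial proteoglycan gene ESM1. ESM1 had 0 counts in the WT libraries and 30, 33 and 16 in NUAK2-CR, at least 11.8-fold higher against a floor of 3 counts per WT library. Of the 4 endothelial markers, PECAM1 (2, 0 and 0 counts in WT libraries, 12, 14 and 14 in NUAK2-CR libraries) and VWF were also higher in NUAK2-CR and CDH5 and TEK did not pass. PECAM1, like ESM1, passed the filter only through its NUAK2-CR counts. The part of these markers in the ESM1 value was not tested. IGFALS, the acid-labile subunit of the circulating complex and likewise named after its values were seen, had at most 4 counts in a library.

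Of 5 surface proteins that bind IGFBPs, 4 were tested, 3 were higher in NUAK2-CR and none was lower, with a median of 0.38. LRP1 (gene 4035, chromosome 12), an endocytic receptor for IGFBP3, had 1532, 1622 and 1346 normalized counts in WT against 8436.5, 9488 and 6899 in NUAK2-CR. The fitted log2 fold change of 2.46 (standard error 0.11, edgeR adjusted p = 4.56e-09) passed the study's threshold of 2. The integrin genes ITGA5 (0.30) and ITGB1 (0.47), which encode the receptor for the RGD motif of IGFBP1 and IGFBP2, were also higher, and TMEM219, another IGFBP3 receptor, had 0.01 and did not pass; these 3 genes were named to complete the counts after their values were seen.

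In the list of the IGF2 locus and regulators of IGF mRNA, 4 of 10 genes were tested, with 3 higher, 1 lower and a median of 0.82. IGF2BP2 (gene 10644, chromosome 3), which binds IGF2 and other mRNAs, was lower, at 3574 ± 205 (SD, n = 3) in WT libraries against 2604 ± 87.3 (SD, n = 3) in NUAK2-CR (log2 fold change -0.46, edgeR adjusted p = 0.000127). Its paralog IGF2BP3 (gene 10643, chromosome 7) was higher, at 1528.5 ± 164 and 2599 ± 22.8 (0.76, adjusted p = 7.21e-06). IGF2BP1 had at most 2 counts in a library. HMGA2 (gene 8091, chromosome 12), an architectural factor that promotes IGF2BP2 transcription, rose from 971 ± 41.2 to 2117 ± 101 (1.12, edgeR adjusted p = 1.23e-07), and PLAG1, a zinc finger factor acting on IGF2 promoters and named here after its value was seen to complete the count, was higher by 0.87.

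Of 28 genes of the receptor adaptors and PI3K-AKT signalling, 27 were tested, with 8 higher, 7 lower, 12 that did not pass and a median of 0.05. SOCS1 (gene 8651, chromosome 16) and SOCS2 (gene 8835, chromosome 12), suppressors of cytokine and growth hormone signalling, moved apart. SOCS1 went from a WT mean of 60.7 ± 4.81 (SD, n = 3) to a NUAK2-CR mean of 284 ± 8.87 (SD, n = 3), a log2 fold change of 2.22 (edgeR adjusted p = 3.41e-07). SOCS2 went from 6043 ± 55.9 to 1722 ± 70.9, a log2 fold change of -1.81 (edgeR adjusted p = 7.36e-10). FOXO1 (gene 2308, chromosome 13), the transcription factor that AKT keeps out of the nucleus, fell from 650 ± 45.9 to 283.5 ± 12.4 (-1.20, edgeR adjusted p = 1.75e-06). The adaptor IRS2 was higher by 0.36 (edgeR adjusted p = 0.0032). IRS1 had 0.20 (edgeR adjusted p = 0.0191), which did not pass without WT replicate 3 (adjusted p = 0.0664) or without NUAK2-CR replicate 3 (adjusted p = 0.0931).

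Of 15 genes that respond to FOXO factors, all tested, 8 were higher in NUAK2-CR, 2 were lower and 5 did not pass, with a median of 0.32. BCL2L11, which encodes the death protein BIM, rose from a WT mean of 1622 ± 66.4 (SD, n = 3) to a NUAK2-CR mean of 3593 ± 184 (SD, n = 3) normalized counts (1.15, edgeR adjusted p = 5.77e-08). The ubiquitin ligase gene FBXO32 rose from 12891 ± 437 to 27759 ± 354.5 (1.11, edgeR adjusted p = 3.02e-08). SESN3, a stress-induced inhibitor of mTOR complex signalling, fell from 8529 ± 1093 to 3088 ± 139.5 (-1.47, edgeR adjusted p = 5.81e-08), and TXNIP, an inhibitor of glucose uptake, from 996 ± 73.2 to 458 ± 30.9 (-1.12, edgeR adjusted p = 1.05e-06).

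The mannose 6-phosphate sorting list, which holds the partners of IGF2R in lysosomal delivery, had 7 tested genes, with 2 higher, 1 lower, 4 that did not pass and a median of 0.11. GNPTG (0.50) and NAGPA (0.38), which encode enzymes of the mannose 6-phosphate tag, were the genes that were higher, and the adaptor gene GGA3 (-0.56) the lower. NAGPA did not pass when WT replicate 2 (edgeR adjusted p = 0.11) or WT replicate 3 (0.0518) was left out, nor when either of NUAK2-CR replicates 1 (0.0661) and 3 (0.0829) was. M6PR, the smaller mannose 6-phosphate receptor, had 0.09 and did not pass. Genes of this list were named to complete its counts after their values were seen.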

How the data were processed

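Bulk RNA-sequencing of polyadenylated RNA from U251 cells was analysed in 3 WT and 3 NUAK2-CR libraries. The deposited values are raw counts per gene, which the authors made with featureCounts from HISAT2 alignments (hg38) of reads trimmed by Trimmomatic, at default settings; versions, annotation and strand setting are not given in the sources used here. Values of 2, 4, 6, 8 and 10 occurred 13435 times and values of 1, 3, 5, 7 and 9 occurred 6441 times in the deposited counts, so mates of a read pair may have been counted separately and a low count may stand for fewer molecules. Intervals cover the spread between these libraries, and the floor of 3 counts covers counting error only. Of 28395 gene identifiers, 27745 were matched to RefSeq symbols.

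Counts were fitted in R 4.3.3 with edgeR 4.0.16 (filterByExpr, TMM, glmQLFit and glmQLFTest, prior count 0.125), with Benjamini-Hochberg adjustment over 14873 genes. Log2 fold changes are NUAK2-CR over WT; standard errors were derived from the F statistic, and 95% intervals used its degrees of freedom. Shares were compared with exact permutation tests (scipy 1.17.1). Transcript lengths came from GENCODE 44 and positions from RefSeq GRCh38.p14, the same build as hg38. Regional medians used 50 tested genes on each side where the chromosome held them. Alternatives were RLE and library-size scaling, DESeq2 1.42.0, other filters, leaving out each library, glmTreat, a prior count of 2, a replicate block and other lengths and neighbourhoods.

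The genes and lists were chosen with earlier results of these data known. Named genes are the 10 of the IGF system, NUAK2, the ligands, receptors and regulators fixed by name, and per list the 4 largest changes with an adjusted p under 0.05, an absolute log2 fold change over 1 and at least 100 normalized counts on average in the group where they were higher; exceptions are stated.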

Additional observations from a re-analysis of the deposited data

How the results depend on the processing

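The 8 tested IGF system genes kept their direction and an adjusted p under 0.05 in all 104 combinations of gene and alternative fit (13 each), with ranges of log2 fold change, set by leaving out a library, of 1.82 to 1.98 for IGFBP5, 0.24 to 0.39 for IGFBP2, 0.54 to 0.69 for IGFBP6, 0.42 to 0.53 for IGF2R, -0.51 to -0.45 for IGF1R, -0.37 to -0.32 for IGFBP3, -1.47 to -1.32 for IGFBP7 and -1.93 to -1.81 for IGFBP4. The largest adjusted p among these was 0.0301, for IGFBP2 without NUAK2-CR replicate 3. Of 18 other genes named by rule, 17 kept their side of the threshold in every alternative fit that held them, with IRS1 the exception. Genes named to complete counts were outside these 18, and NAGPA among them did not pass with some libraries left out. The replicate numbers do not pair the libraries (correlations of deviations 0.05, -0.11 and 0.14); the replicate block gave 8167 genes called against 8107 and changed no call among the IGF system genes or the counts of the 8 lists. An absolute log2 fold change over 1, or glmTreat against 1, put 3 of the genes past the threshold in place of 0. Less the regional shift, an alternative chosen after seeing the data, log2 fold changes were 1.75 (IGFBP5), 0.14 (IGFBP2), 0.40 (IGFBP6), -0.37 (IGF1R), -0.49 (IGFBP3), -1.53 (IGFBP7) and -1.51 (IGFBP4). With 20 neighbours on each side, regional medians were 0.21 (IGFBP5), 0.13 (IGFBP2), 0.23 (IGFBP1 and IGFBP3), -0.59 (IGFBP4), 0.38 (IGFBP6), 0.02 (IGFBP7), 0.15 (IGF2) and -0.19 (IGF2R). Without IGFBP5 in the sum, also chosen after seeing the data, the share of IGFBP2 was 22.2 and that of IGFBP6 5.79 percentage points higher in NUAK2-CR, reversed from -7.38 and -0.394, since IGFBP5 was removed from the denominator. Requiring 10 counts in every library removed PAPPA and left 1 lower protease gene. It also removed ESM1 and left 4 higher genes in the ternary complex and IGFBP-related list. With no filter beyond 1 count, 2 genes of the IGF2 locus and mRNA list were lower. The count of higher mannose 6-phosphate sorting genes ranged from 1 to 2 with a library left out. Depth limits IGF1, IGF2, IGFBP1 and PAPPA in NUAK2-CR, each with 14 counts or fewer per library.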

Other observations

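Some regulators and paralogs of the IGF lists had too few reads to be tested. LIN28A, an RNA-binding protein of stem cells, had 9, 3 and 4 counts in the WT libraries, which were deeper, and 0 in every NUAK2-CR library. Its paralog LIN28B had 7, 4 and 0 counts in the WT libraries against 15, 4 and 7 in NUAK2-CR. PAPPA2, the paralog of PAPPA, had between 1 and 4 counts in every library. These genes were picked after their values were seen.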
